A study of Rattus norvegicus with 6 samples.

Results

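Snorc, Cytl1, Chad, Chadl, Clec3a, Scrg1 and Mia encode small secreted or cell-surface proteins known mainly from cartilage. They were taken by gene symbol, with earlier results of these data known, and all 7 are among the 17954 genes in the files. mRNA sequencing was done on cartilage cells of the rat jaw joint (mandibular condyle), in 3 libraries of flat 2D culture and 3 libraries of condylar cartilage organoids, which are small cartilage tissues formed in culture. DMEM with 20% fetal bovine serum was used for the 2D cells, a chondrogenic medium for organoids, and 5% CO2 for both, so culture format and medium cannot be told apart. The labels give no strain, age, genotype or culture time, and name no added agent. They also do not state that the replicates of a group are separate cultures or animals. The p-values therefore reflect only the spread between these libraries, and that spread may be technical.

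Hyaline cartilage is a matrix of collagen fibrils filled with proteoglycan, and chondrocytes secrete many small proteins that bind to these fibrils, to the cell surface or to each other. Transcription of most of the genes for this matrix depends on SOX9, working with SOX5 and SOX6. Chondrocytes that spread on plastic are known to lose expression of these genes. Snorc is a small chondroitin sulfate proteoglycan of the chondrocyte. Clec3a is a C-type lectin related to tetranectin. Chad (chondroadherin) and Chadl (chondroadherin-like) are leucine-rich repeat proteins that bind collagen, and Chad is also bound by integrins. Scrg1 is a small cysteine-rich secreted protein first described in scrapie-infected brain. Mia, also called cartilage-derived retinoic acid-sensitive protein, has an SH3-like fold and is also secreted by melanoma cells. Cytl1 is a cytokine-like secreted protein of cartilage.

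The bases upstream of 3 of these genes are shown because Sox9, Sox5 and Sox6 were themselves higher in the organoids, as given further on, and because these promoters lie over no other annotated gene. RefSeq (rat assembly GRCr8) gave a promoter entry for 5 of the 7 genes. Each window is the 250 bases before the annotated start, read 5′ to 3′ on the gene's strand, which is the minus strand for all 3: Mia at chr1:91603020-91603269, Scrg1 at chr16:37799011-37799260 and Cytl1 at chr14:77283646-77283895. The letters searched on both strands were CAAAG or CAATG directly after one of the pairs AA, AT, TA and TT, which are forms of the SOX motif. Capitals mark a match.
Mia: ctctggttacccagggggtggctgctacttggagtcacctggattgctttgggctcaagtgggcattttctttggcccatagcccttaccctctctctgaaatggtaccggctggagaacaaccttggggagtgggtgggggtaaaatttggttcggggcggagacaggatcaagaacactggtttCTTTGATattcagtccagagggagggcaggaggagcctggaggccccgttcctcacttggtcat
Scrg1: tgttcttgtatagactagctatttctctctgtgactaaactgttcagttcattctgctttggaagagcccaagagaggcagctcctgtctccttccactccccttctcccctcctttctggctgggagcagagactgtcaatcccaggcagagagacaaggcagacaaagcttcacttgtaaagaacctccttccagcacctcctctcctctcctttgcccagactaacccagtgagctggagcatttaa
Cytl1: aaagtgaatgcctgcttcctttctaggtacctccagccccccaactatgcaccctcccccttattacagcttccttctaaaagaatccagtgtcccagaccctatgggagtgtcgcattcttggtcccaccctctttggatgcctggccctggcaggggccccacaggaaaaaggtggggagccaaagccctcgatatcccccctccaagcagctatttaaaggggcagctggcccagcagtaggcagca
Only the Mia window held one of these strings among the 5 promoters with an entry, those of Chad and Chadl included. It is ATCAAAG read on the opposite strand, printed above as CTTTGAT. The first base of CTTTGAT, on the gene's strand, lies 64 bases before the start. Of 33469 rat promoter windows of the same length, 7501 (22.4%) held at least 1 such string. A match is a string of letters and not a site, and the windows without one are only windows that lack these strings.

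Levels are in CPM after TMM scaling, counts divided by a scaled library size so that libraries can be compared for one gene. The files used here give no gene lengths, so levels of different genes are not ranked. Library totals were 18592574 to 26472447 estimated counts, so a library in which a gene has 0 counts still allows up to 3 counts, or 0.0917 to 0.18 CPM. Col1a1, the fibrillar collagen of bone and fibrous tissue, took 3.31% to 4.35% of counts in 2D culture and 20.0% to 26.4% in organoids. Fold changes are organoid over 2D culture on the log2 scale ± SE, and a gene was called where its adjusted p in edgeR's quasi-likelihood test was under 0.05. Groups are given as mean ± SD over 3 libraries, and intervals are exact 95% intervals for counting error only. In bulk libraries, fewer cells of a type and less RNA per cell cannot be told apart.

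The mRNAs of the 7 genes were close to absent in 2D culture, and those of all but Cytl1 were detected in every organoid. Of the 7 genes, 4 passed the filter on low counts (Snorc, Clec3a, Mia and Chadl) and all 4 were called higher, where 14.9% of the 13052 genes tested were called higher and 27.5% in either direction. That filter is most easily passed by a gene that is high in one group, so the count over tested genes is a description. Over all 7 genes, 6 had every organoid library above every 2D library, where 17.8% of all genes in the files and 23.4% of the genes tested did. The exception was Cytl1. For Chad and Scrg1 the separation rests on 3 and 2 counts in organoid 2.

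**Figure D1:**
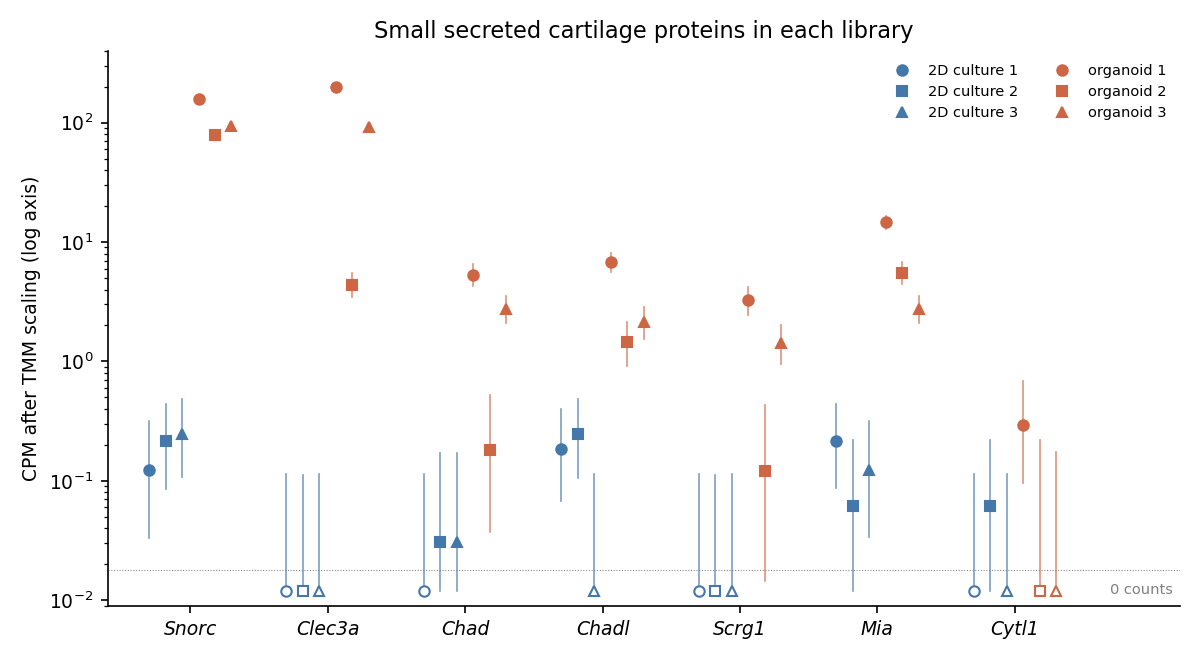
CPM after TMM scaling (log axis) of the 7 genes in the 3 libraries of 2D culture (blue) and the 3 organoid libraries (orange), with exact 95% counting intervals as bars; open symbols at the bottom are libraries with 0 counts. Organoid 1 has the highest point for every gene, and Clec3a, Chad and Scrg1 spread most between the organoids.

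Snorc, the proteoglycan, had 0.123, 0.214 and 0.248 CPM in 2D cultures 1, 2 and 3 and 159, 78.8 and 94.4 CPM in organoids 1, 2 and 3. Every organoid was far above every 2D library, and the organoids differed from each other by 2.01 times at most. The mean level was 0.195 ± 0.0647 CPM in 2D culture, from 19 counts in all, and 111 ± 42.4 CPM in organoids. The log2 fold change was 9.12 ± 0.49, and it passed the test (edgeR adjusted p = 0.000197). Under all 13 alternative settings it stayed past the threshold, and without single libraries it ran from 8.79 to 9.36.

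Clec3a, the lectin, had 0 counts in each 2D library and 198, 4.39 and 91.3 CPM in organoids 1, 2 and 3 (3366, 73 and 1929 counts). The groups did not overlap, but organoid 2 was far below the other organoids. Set against 3 counts over the whole 2D group, the organoid level of 98.0 ± 97.1 CPM was at least 3191-fold higher. The difference passed the test (edgeR adjusted p = 0.0181), yet leaving out 2D culture 1, 2 or 3 moved the adjusted p to 0.0586, 0.0523 and 0.0541. It was 0.129 in limma-voom, and over all alternatives it ran from 9.07e-09 (DESeq2) to that value.

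Of the leucine-rich repeat proteins, Chad had 0, 0.0306 and 0.031 CPM in 2D cultures 1, 2 and 3, which is 0, 1 and 1 count. In organoids 1, 2 and 3 it had 5.30, 0.180 and 2.74 CPM, or 90, 3 and 58 counts. Organoid 2 was again the lowest. It stood above every 2D library on 3 counts only, with an interval of 0.0372 to 0.527 CPM, and the 2D intervals reached 0.172 CPM. That gap is thus within counting error. The organoid level of 2.74 ± 2.56 CPM over the level from the 2 counts in 2D culture gave a ratio of 135, with an interval of 36.6 to 1122.1. Chad did not pass the filter and so had no test. With no filter its edgeR adjusted p was 0.0307, without organoid 2 it was 0.00458, and over the 5 alternatives that tested it the range reached 0.106. Chad overlaps Acsf2, a gene for an acyl-CoA synthetase, in GRCr8. Acsf2 had 7.14 to 11.3 CPM in 2D culture (233 to 364 counts) and 13.2 to 15.8 CPM in organoids (219 to 334 counts). It thus did not share Chad's low 2D counts, but its organoids too were all above its 2D libraries. The strand setting of the counting is not known, so reads of Chad and Acsf2 may not be told apart.

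Chadl had 0.184, 0.245 and 0 CPM in 2D cultures 1, 2 and 3 (6, 8 and 0 counts) and 6.78, 1.44 and 2.13 CPM in organoids 1, 2 and 3 (115, 24 and 45 counts). All organoids were above all 2D libraries. The means were 0.143 ± 0.127 CPM and 3.45 ± 2.90 CPM, and the log2 fold change of 4.55 ± 1.37 passed the threshold by little (edgeR adjusted p = 0.0490). The adjusted p was 0.176, 0.143 and 0.119 without 2D culture 1, 2 and 3, and 0.0835 without organoid 1. It also missed the threshold with total library size (0.0577) and with no filter (0.0652), and its range over 13 alternatives was 0.00159 to 0.176. Chadl overlaps L3mbtl2 and a long noncoding RNA gene, and no source used here gives the strand setting of the counting. Reads of Chadl and of an antisense neighbour may then not be told apart. L3mbtl2, a chromatin protein gene, had 35.8 to 40.2 CPM in 2D culture (1172 to 1300 counts) and 36.3 to 52.8 CPM in organoids (616 to 1055 counts).

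Scrg1 had 0 counts in each 2D library and 3.24, 0.12 and 1.42 CPM in organoids 1, 2 and 3 (55, 2 and 30 counts). The organoids did not overlap 2D culture, but organoid 2 rested on 2 counts, with an interval of 0.0146 to 0.434 CPM. The 2D intervals reached 0.114 CPM, so the gap for organoid 2 is within counting error. The organoid level of 1.59 ± 1.57 CPM was at least 51.7-fold higher than 3 counts over the 2D group. Scrg1 did not pass the filter. Its edgeR adjusted p was 0.0458 with no filter and 0.0160 without organoid 2, and reached 0.107 over the 5 alternatives that tested it.

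Mia had 0.215, 0.0611 and 0.124 CPM in 2D cultures 1, 2 and 3 (7, 2 and 4 counts) and 14.7, 5.53 and 2.74 CPM in organoids 1, 2 and 3 (249, 92 and 58 counts). Every organoid was above every 2D library, and here organoid 3 was the lowest. The means were 0.133 ± 0.0771 CPM and 7.65 ± 6.24 CPM, and the log2 fold change was 5.79 ± 0.999 (edgeR adjusted p = 0.00828). Without 2D culture 2 the adjusted p was 0.0517 and without 2D culture 3 it was 0.0587, the highest of the 13 alternatives, which began at 8.15e-09 (DESeq2).

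Cytl1 was hardly detected at all. It had 0, 2 and 0 counts in 2D cultures 1, 2 and 3 and 5, 0 and 0 counts in organoids 1, 2 and 3, so that only organoid 1, at 0.295 CPM, was above the highest 2D library, at 0.0611 CPM. The ratio of the pooled levels was 4.46 with an interval of 0.73 to 46.8, so a difference was not detectable at this depth, and with no filter edgeR gave an adjusted p of 0.501. The libraries with 0 counts allow up to 0.18 CPM.

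The call for Snorc held in every alternative setting, and those for the other genes depended on which libraries and which filter were used. With 2D culture 1 left out, Mia and Snorc were called, and with 2D culture 2 or 3 left out only Snorc was. The number of genes called over the whole table was then 1114, 1211 and 1109 without 2D culture 1, 2 and 3, against 3594 with all libraries. Without organoid 1, 2 and 3 it was 4589, 5321 and 4783. With organoid 2 left out, 6 of the 7 genes were called, Cytl1 being the exception, where 2747 of the 13421 genes tested were called higher. Chad and Scrg1, with 3 and 2 counts in organoid 2, did not pass the filter with all libraries, so that count is a description.

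**Figure D2:**
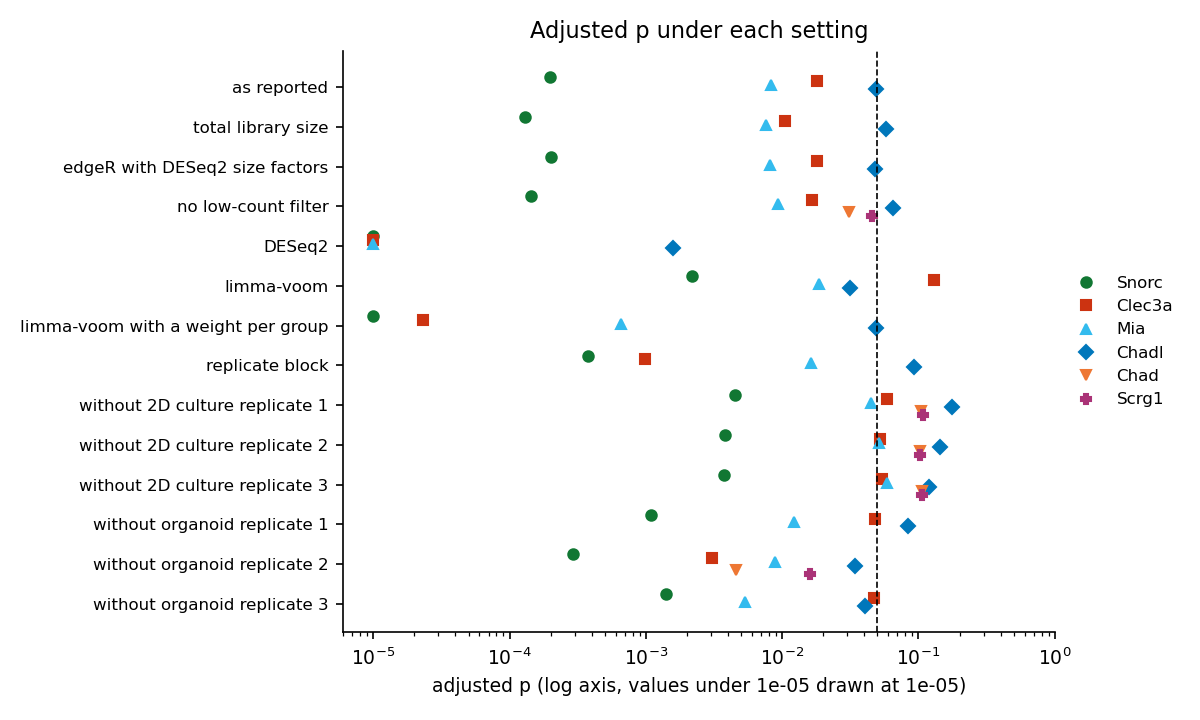
Adjusted p (log axis; values under 1e-05 are drawn at 1e-05) of the genes that could be tested, for the fit as reported and for each alternative setting, with the threshold of 0.05 dashed. Snorc lies left of the threshold in every setting, and Clec3a, Mia and Chadl each lie right of it in at least 1 setting that leaves out a 2D library.

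The organoids differed from each other in these genes by unequal amounts. The ratio of the level in organoid 1 to that in organoid 2 was 45.2 for Clec3a (35.9 to 57.8), 29.4 for Chad (9.75 to 145) and 27.0 for Scrg1 (7.12 to 228). It was 4.70 for Chadl (3.01 to 7.63), 2.65 for Mia (2.08 to 3.41) and 2.01 for Snorc (1.89 to 2.15). The intervals of Clec3a, Chad and Scrg1 thus lay above those of Snorc and Mia. The ratio of Col2a1, the main fibril collagen of cartilage, was 12.2, below the interval of Clec3a and inside those of Chad and Scrg1. Over organoid 3 the ratio of organoid 1 was 1.68 for Snorc, 1.93 for Chad, 2.17 for Clec3a, 2.28 for Scrg1, 3.18 for Chadl, 3.57 for Col2a1 and 5.35 for Mia. Mia, with an interval of 4.0 to 7.24, had the highest of these ratios and Snorc the lowest.

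**Figure D3:**
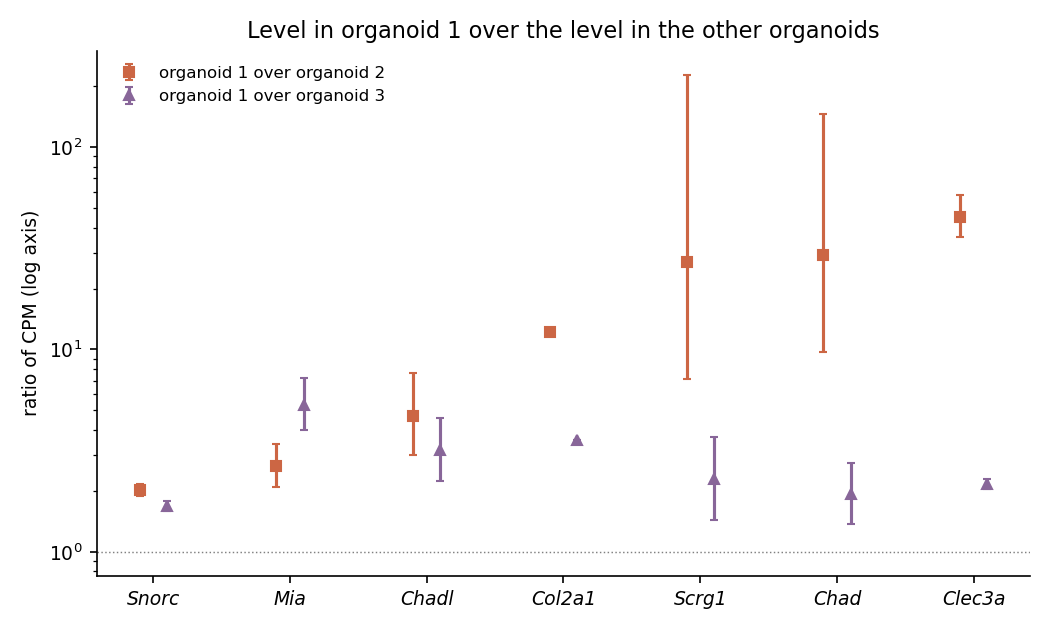
Ratio of CPM in organoid 1 to that in organoid 2 (squares) and in organoid 3 (triangles) on a log axis, for 6 of the genes and Col2a1, with exact 95% counting intervals as bars. The squares run from 2.01 for Snorc to 45.2 for Clec3a, and the triangles from 1.68 for Snorc to 5.35 for Mia.

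Organoid 1 was the highest and organoid 2 the lowest for 5 of the 7 genes, under TMM and under total library size. Of all genes tested, 17.0% had this order under TMM and 8.86% under total library size, and of the genes called higher 21.0% and 11.7% did. Among the organoid libraries, scaling factors ran from 0.662 in organoid 1 to 0.896 in organoid 2, and with total library size the gap between the highest and lowest organoid was 33.4 times for Clec3a and 1.49 times for Snorc. The median SD of log2 CPM over the organoids was 0.689 for all genes tested and 0.137 in 2D culture. For the cartilage genes it was 0.524 for Snorc, 1.13 for Chadl, 1.20 for Mia, 2.09 for Scrg1, 2.31 for Chad and 2.89 for Clec3a. Snorc was thus less variable than the median gene, and the other 5 more.

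Within a library, counts of one gene can be set against counts of another without any scaling between libraries. Clec3a had 37.4 counts per Chad count in organoid 1 (30.3 to 46.6), 24.3 in organoid 2 (8.0 to 121) and 33.3 in organoid 3 (25.6 to 44.0). Per Scrg1 count it had 61.2 in organoid 1 (46.9 to 81.4), 36.5 in organoid 2 (9.75 to 307) and 64.3 in organoid 3 (44.9 to 95.6). These intervals overlap, although they are wide in organoid 2, where Chad and Scrg1 had 3 and 2 counts. Snorc had 0.801 counts per Clec3a count in organoid 1 (0.761 to 0.843), 18.0 in organoid 2 (14.2 to 23.1) and 1.03 in organoid 3 (0.971 to 1.10). Snorc per Mia was 10.8 in organoid 1 (9.51 to 12.4), 14.3 in organoid 2 (11.5 to 17.8) and 34.4 in organoid 3 (26.5 to 45.5). Snorc was thus more abundant relative to Clec3a in organoid 2, and relative to Mia in organoid 3, beyond the counting intervals.

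**Figure D4:**
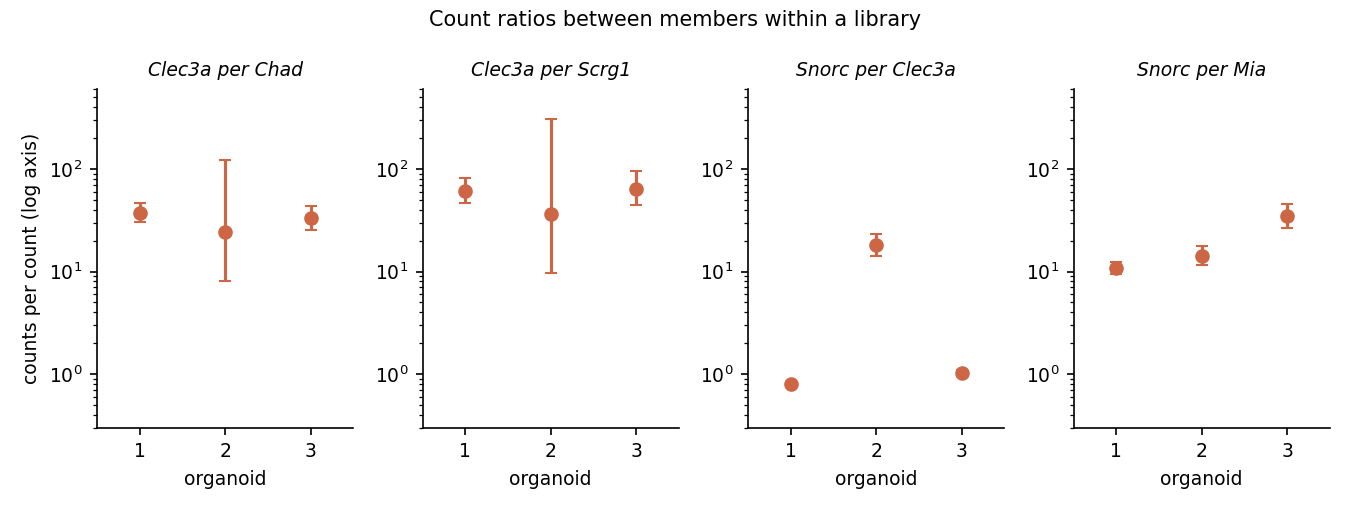
Counts of one gene per count of another within each organoid library (log axis) for Clec3a per Chad, Clec3a per Scrg1, Snorc per Clec3a and Snorc per Mia, with exact 95% counting intervals as bars. The Clec3a ratios to Chad and Scrg1 have overlapping intervals in all organoids, and Snorc per Clec3a is 18.0 in organoid 2.

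Against Col2a1, counts per 1000 Col2a1 counts were 2.03, 12.3 and 4.30 for Snorc in organoids 1, 2 and 3. The same values were 2.53, 0.684 and 4.16 for Clec3a and 0.187, 0.862 and 0.125 for Mia. For Chadl they were 0.0865, 0.225 and 0.097. Organoid 2 thus had the most Snorc, Mia and Chadl and the least Clec3a for its Col2a1. Chad, with 0.0677, 0.0281 and 0.125, and Scrg1, with 0.0414, 0.0187 and 0.0647, had their lowest values in organoid 2 as well. Those 2 values rest on 3 Chad counts and 2 Scrg1 counts, so the place of organoid 2 is uncertain for these genes.

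The SOX factors that drive cartilage genes were higher in the organoids. Sox9 had 55.4, 54.3 and 51.4 CPM in 2D cultures 1, 2 and 3 and 1420, 716 and 942 CPM in organoids 1, 2 and 3, a log2 fold change of 4.26 ± 0.33 (edgeR adjusted p = 0.000601). Its organoid SD of log2 CPM was 0.498, near that of Snorc. Sox6 had 253, 255 and 191 CPM in organoids 1, 2 and 3 against 12.8 to 14.3 in 2D culture, with a log2 fold change of 4.12 ± 0.23 (edgeR adjusted p = 0.000197). Sox5 rose by 1.99 ± 0.34 (edgeR adjusted p = 0.00772), which moved to 0.0508, 0.0534 and 0.0504 without 2D culture 1, 2 and 3.

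A list of 17 genes of the SOX9 programme had 15 tested genes. Of these, 14 were called higher, where 14.9% of all genes tested were, and 1, Acan, was not. The median log2 fold change of the 15 was 6.58, where the median of all genes tested was -0.03. Acan, the large cartilage proteoglycan, had 1460 ± 50.2 CPM in 2D culture and 4346 ± 3469 CPM in organoids (edgeR adjusted p = 0.0824), so it was already abundant in the flat cells. Col2a1 had 2.91, 4.22 and 4.89 CPM in 2D culture and 78321, 6414 and 21945 CPM in organoids 1, 2 and 3 (log2 fold change 13.11 ± 1.33, edgeR adjusted p = 0.00133). Col9a1 and Col11a2, fibril collagens that sit with Col2a1, changed by 12.22 ± 1.78 and 12.01 ± 0.68, and Col9a1 had an edgeR adjusted p of 0.00467 and a limma-voom value of 0.112. Of the 17 genes, 13 had the order of organoid 1, then 3, then 2 under TMM and 12 under total library size. Without 2D culture 1, 2 and 3 all 17 were tested, and 11, 10 and 10 were called higher. In limma-voom 12 of 15 were, and in DESeq2 all 15.

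A list of 11 other secreted cartilage proteins had 8 tested, 5 called higher and 0 lower, where 14.9% of all genes tested were called higher. The median log2 fold change of the list was 5.83 (5.74 with Epyc at its bound). Of the 11 genes, 6 are also in the SOX9 programme list, among them 4 of the 5 called, so these lists are not separate evidence. Without 2D culture 1, 2 or 3 the list had 3, 2 and 2 called higher. Matn3, a matrilin that links collagen fibrils, had 0, 0.122 and 0.402 CPM in 2D culture and 724, 6.73 and 191 CPM in organoids 1, 2 and 3, a log2 fold change of 10.74 ± 2.06 (edgeR adjusted p = 0.0119). Without 2D culture 1, 2 and 3 the Matn3 value was 0.0616, 0.0636 and 0.0512, and limma-voom gave 0.292. Epyc, a small leucine-rich proteoglycan of growing cartilage, had 0 counts in 2D culture and 2.12, 1.14 and 4.12 CPM in organoids 1, 2 and 3, at least 84.4-fold higher (edgeR adjusted p = 0.0124). Epyc was highest in organoid 3, and its adjusted p was 0.0568, 0.0551 and 0.0579 without 2D culture 1, 2 and 3. Hapln1, the link protein that ties aggrecan to hyaluronan, rose by 7.19 ± 0.78 (edgeR adjusted p = 0.00163). Cnmd, chosen after its values were seen, was at 0 counts in 2D culture and had 14.1, 0 and 3.64 CPM in organoids 1, 2 and 3, so it too was lowest in organoid 2.

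Genes whose proteins are described as binding partners or receptors of these proteins, or of their relatives, were called in both directions. Of 13 such genes, 9 were tested, with 1 called higher and 3 lower. Of all tested genes, 14.9% were called higher and 12.6% lower, so the 1 call higher (11.1% of the 9) is near the general share. The median log2 fold change was -0.03, equal to that of all genes. Itgb1, the beta chain of the collagen-binding integrins, had 1312 ± 177 CPM in 2D culture and 425 ± 170 CPM in organoids (log2 fold change -1.63 ± 0.37, edgeR adjusted p = 0.0195). Itga1, an alpha chain that pairs with it and has a fractional count in 1 library, rose from 79.4 ± 3.70 to 231 ± 90.1 CPM (1.54 ± 0.30, edgeR adjusted p = 0.0124). Itgb1 and Itga1 missed the threshold without any single 2D library, at 0.0719 to 0.0875 and 0.0669 to 0.0754. Itga2, the alpha chain of the integrin known to bind Chad, had 2.59 ± 0.343 and 7.63 ± 3.80 CPM and was not called (edgeR adjusted p = 0.0868). Plat, tissue plasminogen activator, fell by 2.31 on the log2 scale (edgeR adjusted p = 0.00574), and Plg itself was at 0 counts in every organoid. Without 2D culture 1, 2 or 3 the list had 0 called higher and 1 lower.

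Defining chondrocyte markers were low in the 2D libraries: Col2a1 was below 5 CPM in each, Col9a1 was at 0.0306 to 0.398 CPM and Matn1 had 1 count in all, while Acan and Sox9 were well detected. The summed level of 6 chondrocyte markers was 1490 to 1593 CPM in 2D culture and 95752, 9902 and 28879 CPM in organoids 1, 2 and 3, with 4 of 5 tested genes called higher. The order of the organoids in that sum is the order seen for Snorc, Clec3a, Chad, Chadl and Scrg1, and the part of chondrocyte content in their differences was not tested. All 6 osteoblast markers were called higher, where 14.9% of all genes tested were. The sum of these markers was 208 to 220 CPM in 2D culture and 20395, 13776 and 12378 CPM in organoids 1, 2 and 3. Ibsp, with 14455, 8962 and 7648 CPM, made up most of that sum, and it was the only 1 of the 6 markers in the order of organoid 1, then 2, then 3, the order of Mia. Bglap and Dmp1, bone matrix genes that rose by 10.69 ± 0.62 and 12.03 ± 0.74 (edgeR adjusted p = 0.000253 and 0.000294), were lowest in organoid 1. Of 4 tendon and synovium markers, Scx and Tnmd were called lower, with log2 fold changes of -3.06 ± 0.69 and -6.36 ± 0.91 (edgeR adjusted p = 0.0192 and 0.00445). Mkx and Prg4 went the other way without being called, at 1.01 ± 0.96 and 2.64 ± 1.32 (edgeR adjusted p = 0.473 and 0.183). The value of Scx was 0.0744, 0.0826 and 0.0777 without 2D culture 1, 2 and 3. Of the melanocyte markers, which matter for Mia, Dct was at 0 counts in every library and the sum was 2.48 to 4.12 CPM in 2D culture and 2.95, 3.73 and 1.61 CPM in the organoids. Of the glial markers, which matter for Scrg1, Sox10 and Gfap were at 0 counts in all organoids, and the sum of 5 glial genes was 2.08 to 2.54 CPM in 2D culture and 1.77, 0.961 and 0 CPM in organoids 1, 2 and 3.

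Macrophage markers summed to 0.306 to 0.774 CPM in 2D culture and 34.0, 18.0 and 0.284 CPM in the organoids, most of it Csf1r, with Adgre1 at 0 counts in every library. Endothelial markers summed to 0.520 to 0.805 CPM in 2D culture and 3.59, 2.40 and 0.0946 CPM in the organoids. Kdr was at 0 counts in all organoids, while Pecam1, Cdh5, Tek, Vwf and Emcn had more counts over the organoids than over 2D culture. Muscle markers summed to 0.886 to 2.23 CPM in 2D culture and 13.0, 3.61 and 3.22 CPM in organoids 1, 2 and 3. Myh3, an embryonic muscle myosin, was called lower in organoids (log2 fold change -5.91 ± 1.32, edgeR adjusted p = 0.0187), which moved to 0.0897, 0.0676 and 0.0915 without 2D culture 1, 2 and 3. The other muscle markers did not pass the filter. Ttn, Ckm and Actn2 had 8, 1 and 14 counts over 2D culture and 202, 88 and 56 over the organoids, and Myog had 6 and 1. These 3 sums were highest in organoid 1, as each of the 7 secreted cartilage genes was, although single markers were not: Tek was highest in organoid 2, and Ckm and Ptprc in organoid 3. Their part in the result was not tested.

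For each gene with at least 10 counts in every organoid, the tested genes most like it were found by the root mean square difference of log2 CPM over the 6 libraries, each gene being centred on its own mean (13048 candidates). Those of Snorc were Olah (0.349), Ihh (0.358) and Egln3 (0.410). Ihh encodes a signal of prehypertrophic chondrocytes, and Egln3 an oxygen-dependent prolyl hydroxylase. Those of Clec3a were Enpp2 (0.738), Matn3 (0.842) and Kcna5 (0.893), a looser match. Those of Mia were Scube1 (0.321), Tcfl5 (0.458) and Ak4 (0.556), and those of Chadl were Lepr (0.335), Lyz2 (0.441) and Rflna (0.514). No gene was a match for more than one of the 4.

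**Figure D5:**
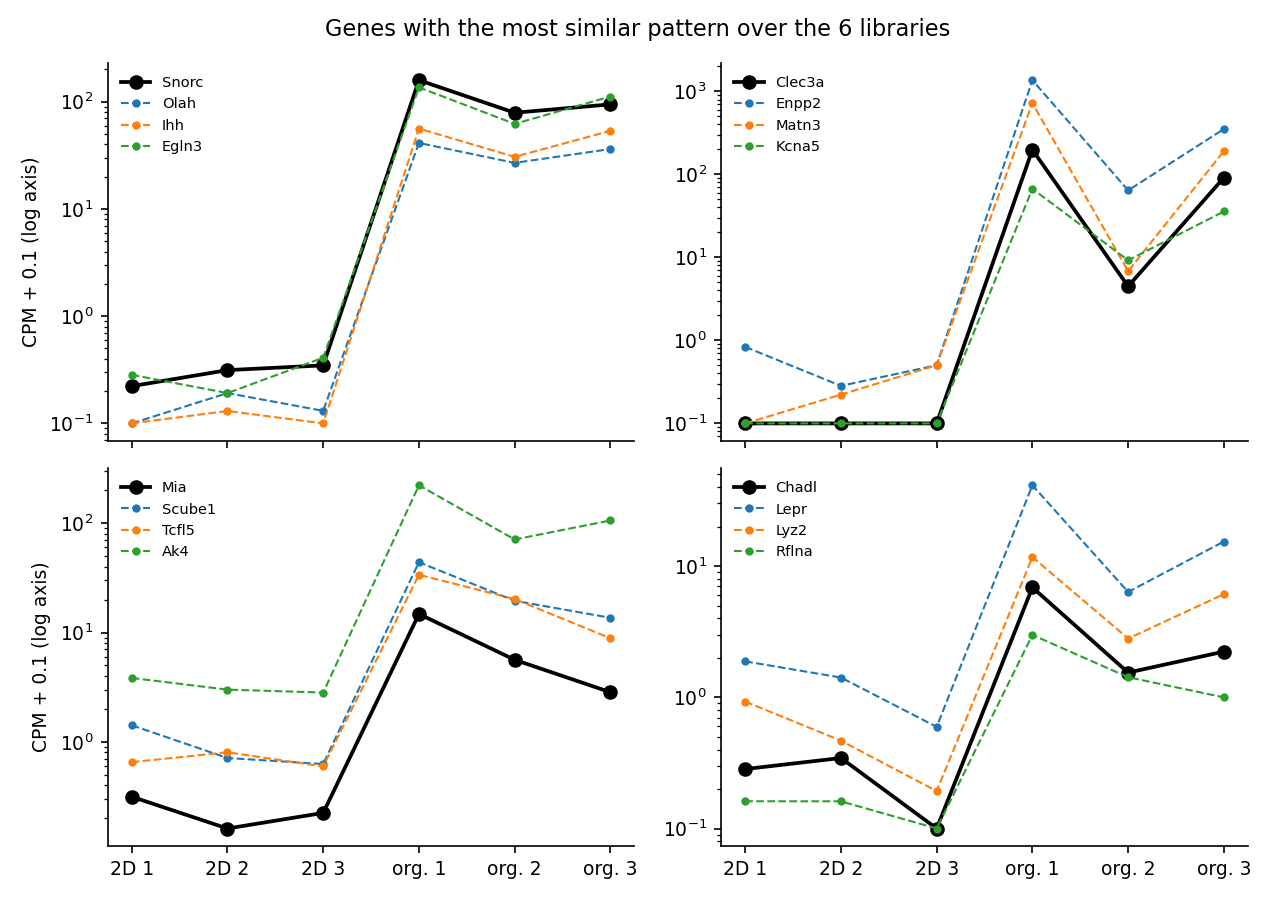
CPM plus 0.1 (log axis) in the 3 libraries of 2D culture and the 3 organoids for Snorc, Clec3a, Mia and Chadl (black) and the 3 genes most like each (dashed); lines join the values of a gene and stand for no order of the libraries. Snorc and its matches are within a narrow range over the organoids, and Clec3a and its matches dip in organoid 2.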

How the data were processed

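The authors deposited a file of estimated counts per gene, not normalised, for each of the 6 libraries, with 17954 gene IDs and symbols. Per the labels' protocols, Trizol was used for total RNA and a DNBSEQ mRNA kit for the libraries. Tools named in the submitters' processing notes, with no version or role, are HISAT, HISAT2, Bowtie2, RSEM and DESeq2. The strand setting, annotation and genome build are not given in the sources. Between 1846 and 2501 values per library are fractional, and counts were rounded before testing. All counts of the 7 genes are whole.

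Groups came from sample titles. Genes were filtered with filterByExpr (minimum count 10), scaled by TMM and compared with edgeR 4.0.16 in R 4.3.3 (robust quasi-likelihood F-test over all 13052 genes, Benjamini-Hochberg adjustment at 0.05, SE as the size of the log2 fold change divided by the root of F). limma 3.58.1 and DESeq2 1.42.0 were alternatives, as were total library size, DESeq2 size factors, no filter, a replicate block and leaving out each library. Steps were tested on simulated data. Every pair of replicates differed by more than sampling noise (lowest chi-square over its degrees of freedom, 9.1).

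The 7 genes and the other lists were chosen with earlier results of these data known. Genes named beside the 7 are the called genes with the largest change in each list, up to 3, the largest in the opposite direction, the SOX factors, Col2a1 and the 3 genes of most like pattern. Cnmd, Acan and the single genes named within other lists were chosen after their values were seen. A RefSeq table of GRCr8 held 17720 of the IDs and gave overlaps and promoter windows.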

Additional observations from a re-analysis of the deposited data

How the results depend on the processing

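No log2 fold change of a named gene changed sign in any alternative, but the balance of calls did turn. Scaled to total library size, 1063 genes were called higher and 3529 lower, 23.1% of calls being higher against 54.1% as reported, the median log2 fold change of all genes moved from -0.03 to -0.65, and Chadl was 3.80. With no filter on low counts, Chad (6.72) and Scrg1 (8.32) passed and Chadl (4.50) did not. In limma-voom 1942 genes were called higher and 2478 lower, and Clec3a (11.50) missed the threshold. Leaving out single libraries, genes called ran from 1109 to 5321, higher from 703 to 2747, lower from 399 to 2574, and secreted cartilage genes called from 1 to 6; log2 fold changes ran from 3.63 to 5.14 for Chadl, 13.38 to 14.98 for Clec3a, 4.92 to 6.28 for Mia, 6.24 to 7.37 for Chad and 8.25 to 9.02 for Scrg1. The fitted values of Clec3a and Scrg1, at 0 counts in 2D culture, depend on the prior count and are no bounds. Leaving out a 2D library lowered the count of calls and leaving out an organoid raised it, and the cause was not tested. For the 37 genes outside the 7 that the naming rule gave, 434 of 481 values kept their call and 47 lost it.

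Whether replicate numbers pair the samples could not be decided from 3 libraries per group. The same-number correlations of deviations from group means were 0.061, 0.187 and 0.021. 2D cultures 1 and 2 correlated best with the organoid of the same number, and 2D culture 3 with organoid 1 (0.07). With the replicate block, 2730 genes and 3 secreted cartilage genes were called, and Chadl (4.85) missed the threshold. Chad, Scrg1 and Cytl1 are limited by depth, with 151, 87 and 5 counts over the organoids.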

Other observations

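Among 9 relatives of these proteins, 7 were tested, 5 were called higher in the organoids and 0 lower. Of all genes tested, 14.9% were called higher. The median log2 fold change of the relatives was 1.08. Clec3b, which encodes tetranectin, the relative of Clec3a, had 0, 0.306 and 0.588 CPM in 2D cultures 1, 2 and 3 and 27.4, 2.40 and 13.9 CPM in organoids 1, 2 and 3. The groups did not overlap, and organoid 2 was the lowest organoid for Clec3b as it was for Clec3a. The log2 fold change of Clec3b was 5.59 ± 1.45 (edgeR adjusted p = 0.0309), with a range of 1.94e-05 to 0.117 over the alternatives. Podnl1 and Tsku, leucine-rich repeat proteins, rose by 1.77 ± 0.27 and 1.08 ± 0.19 (edgeR adjusted p = 0.00574 and 0.00912), and Tsku missed the threshold with total library size (0.145). Without any single 2D library the list had 1 called higher, and with total library size it had 2 higher and 1 lower. Otor, the closest relative of Mia, was at 0 counts in every organoid and had 3 counts in 2D culture.

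Genes of chondrocyte hypertrophy, the step before cartilage turns to bone, were called higher in 12 of 12 cases, where 14.9% of all genes tested were. The median log2 fold change of the 12 was 6.14. Ibsp, Sp7 and Alpl in this list are also osteoblast markers, and all 6 osteoblast markers were called higher. Ibsp, a bone matrix phosphoprotein, rose by 12.27 ± 0.50 (edgeR adjusted p = 0.000142), and Col10a1, the collagen of hypertrophic cartilage, by 11.57 ± 1.13 (edgeR adjusted p = 0.00117). Ihh, with 1 count in 2D culture and 2588 in organoids, had a ratio of pooled levels of 4616, with an exact 95% interval of 828 to 182391 (edgeR adjusted p = 0.000294). Of 9 genes linked to loss of the chondrocyte state, 5 were called lower and 3 higher, where 12.6% and 14.9% of all genes tested were. Without any single 2D library this list had 4 called lower and 2 higher, and with total library size 6 and 3. Cnn1, a smooth muscle calponin, had 11262 counts over the 2D libraries and 3 over the organoids. Its pooled 2D level over the organoid level was 2105, with an exact 95% interval of 720.0 to 10207.5 (edgeR adjusted p = 0.000343). Acta2 and Tagln, smooth muscle genes of spread cells, changed by -6.83 and -6.31 (log2), and Col1a2, a chain of the bone and fibrous tissue collagen, rose by 3.31 ± 0.29 (edgeR adjusted p = 0.00179, 0.000142 and 0.000833).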
